A study of Rattus norvegicus with 6 samples.

Results

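Steroid hormone receptors and steroid-converting enzymes of the liver were followed through 8 genes: the receptors Esr1 and Nr3c1, the enzymes Srd5a1, Hsd17b2, Hsd3b5, Hsd11b1 and Hsd17b6, and the secreted protein A1bg. They are 8 of the 15284 genes that could be matched on the array. Every non-control probe whose RefSeq accession belongs to 1 of them was taken, 15 of 61657 probes, by annotation alone. All 15 passed the detection filter, which asks for a signal well above background in 3 or more samples, as did 39411 probes in all. The samples were total liver RNA of male Sprague-Dawley (Crl:CD(SD)) rats bought at 5 weeks of age, with 1 array per animal. The 3 control rats received corn oil, the vehicle, and the other 3 rats received phenolphthalein at 1000 mg per kg per day. Phenolphthalein is a pH indicator once sold as a laxative and has weak estrogen activity. The labels give 9 weeks of treatment in 1 place and 28 days in another.

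The liver is both a target and the main site of clearance of steroid hormones. Estrogen and glucocorticoid enter cells and bind receptors that act on DNA, and the enzymes beside them switch a steroid between active and inactive forms by moving hydrogen on and off single positions of the ring. In rats many of these liver enzymes differ between the sexes, because the pituitary releases growth hormone in pulses in males and more evenly in females, and STAT5 carries that pattern to liver genes.

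The promoters below are shown because Esr1 is the main liver receptor for an estrogenic compound and because A1bg and 1 probe of Srd5a1 are the members whose treated rats all lay below the controls. Each run holds the 250 bases before a transcript start annotated in RefSeq (GRCr8), with capitals for matches to a searched motif on either strand. The windows are chr1:43641845-43642094 (plus strand) for Esr1, chr1:35514664-35514913 (plus strand) for Srd5a1 and chr7:94387497-94387746 (minus strand) for A1bg. The Srd5a1 start is the outer end of the gene, while those of Esr1 and A1bg lie inside the annotated gene, whose full span begins further upstream.
Esr1: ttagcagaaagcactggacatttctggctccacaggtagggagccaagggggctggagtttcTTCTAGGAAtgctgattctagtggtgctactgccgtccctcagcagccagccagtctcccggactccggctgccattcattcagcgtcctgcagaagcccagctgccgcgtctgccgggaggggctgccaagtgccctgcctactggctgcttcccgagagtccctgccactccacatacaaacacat
Srd5a1: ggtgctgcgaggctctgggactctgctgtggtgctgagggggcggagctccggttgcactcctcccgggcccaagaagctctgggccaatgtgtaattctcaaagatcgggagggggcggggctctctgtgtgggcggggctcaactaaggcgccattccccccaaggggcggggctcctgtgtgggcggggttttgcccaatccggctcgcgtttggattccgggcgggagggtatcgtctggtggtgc
A1bg: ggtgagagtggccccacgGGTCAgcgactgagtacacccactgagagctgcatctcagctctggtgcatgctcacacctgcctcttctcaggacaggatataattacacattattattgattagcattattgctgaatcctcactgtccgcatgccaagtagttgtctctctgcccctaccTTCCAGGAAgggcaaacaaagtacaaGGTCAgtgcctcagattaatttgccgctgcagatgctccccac

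RefSeq promoter sequences were matched for 4 of the 8 genes, Esr1, Nr3c1, Srd5a1 and A1bg. The motifs were the full estrogen response element GGTCANNNTGACC, which contains the half-site GGTCA, the full glucocorticoid response element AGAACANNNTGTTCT, which contains the half-site TGTTCT, and the STAT5-type element TTCNNNGAA. The A1bg window held the estrogen half-site GGTCA at 2 places, whose first bases lie 232 and 43 bases before the start, and a STAT5-type element that begins 69 bases before it. The Esr1 window held a STAT5-type element that begins 188 bases before the start. The windows of Srd5a1 and Nr3c1 (2 windows for Nr3c1) held none of these letters. Among 33469 promoter windows of this length, 35.4% held the estrogen half-site, 7.67% the STAT5-type element, 17.5% the glucocorticoid half-site, 0.0239% the full estrogen element and 0.012% the full glucocorticoid element. These matches describe letters in a window, and no binding was measured.

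Values below are log2 of the processed spot signal relative to the 75th percentile of that array, so 0 is the 75th percentile and 1 unit is a 2-fold step. The 75th percentile was 551 to 636 intensity units, and 62.1% to 65.1% of probes per array were well above background. Slide 1 carried the corn oil samples and slide 2 the phenolphthalein samples, in separate scans, so that a treatment difference and a slide or scan difference cannot be told apart. Summed markers of hepatocytes, in linear multiples of the 75th percentile, were 5212 to 5602 in corn oil and 5445 to 5621 with phenolphthalein, and all 10 markers were measured. Of 5 markers of steroid-making adrenal cells, Star, Cyp11a1 and Mc2r were well above background on 0 of 6 arrays, Cyp11b1 on 1 and Cyp21a1 on all 6.

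The comparison of phenolphthalein with corn oil asked whether an estrogenic compound at a high dose came with changed levels of these genes. No member passed. With limma and Benjamini-Hochberg adjusted p-values over all 39411 probes, 0 of 15 member probes were called, against 0.0482% of all probes (0.0457% higher and 0.00254% lower), and their adjusted p ran from 0.384 to 0.934. At an unadjusted p under 0.05 the count was also 0 of 15, against 13.2% of all probes (6.84% higher and 6.37% lower). The mean was lower with phenolphthalein for 9 probes and higher for 6, with a median log2 fold change of -0.22 against 0.02 over all probes. The groups did not overlap for 4 of the 15 probes, 2 higher and 2 lower, which holds for 21.1% of all probes. A p that misses the threshold does not show that a level stayed the same, so the 95% interval is given for each gene. For 10 of the 15 probes it lay inside a 2-fold change either way, and the other 5 were the probes of Esr1, Srd5a1, Hsd17b2 and A1bg.

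**Figure D1:**
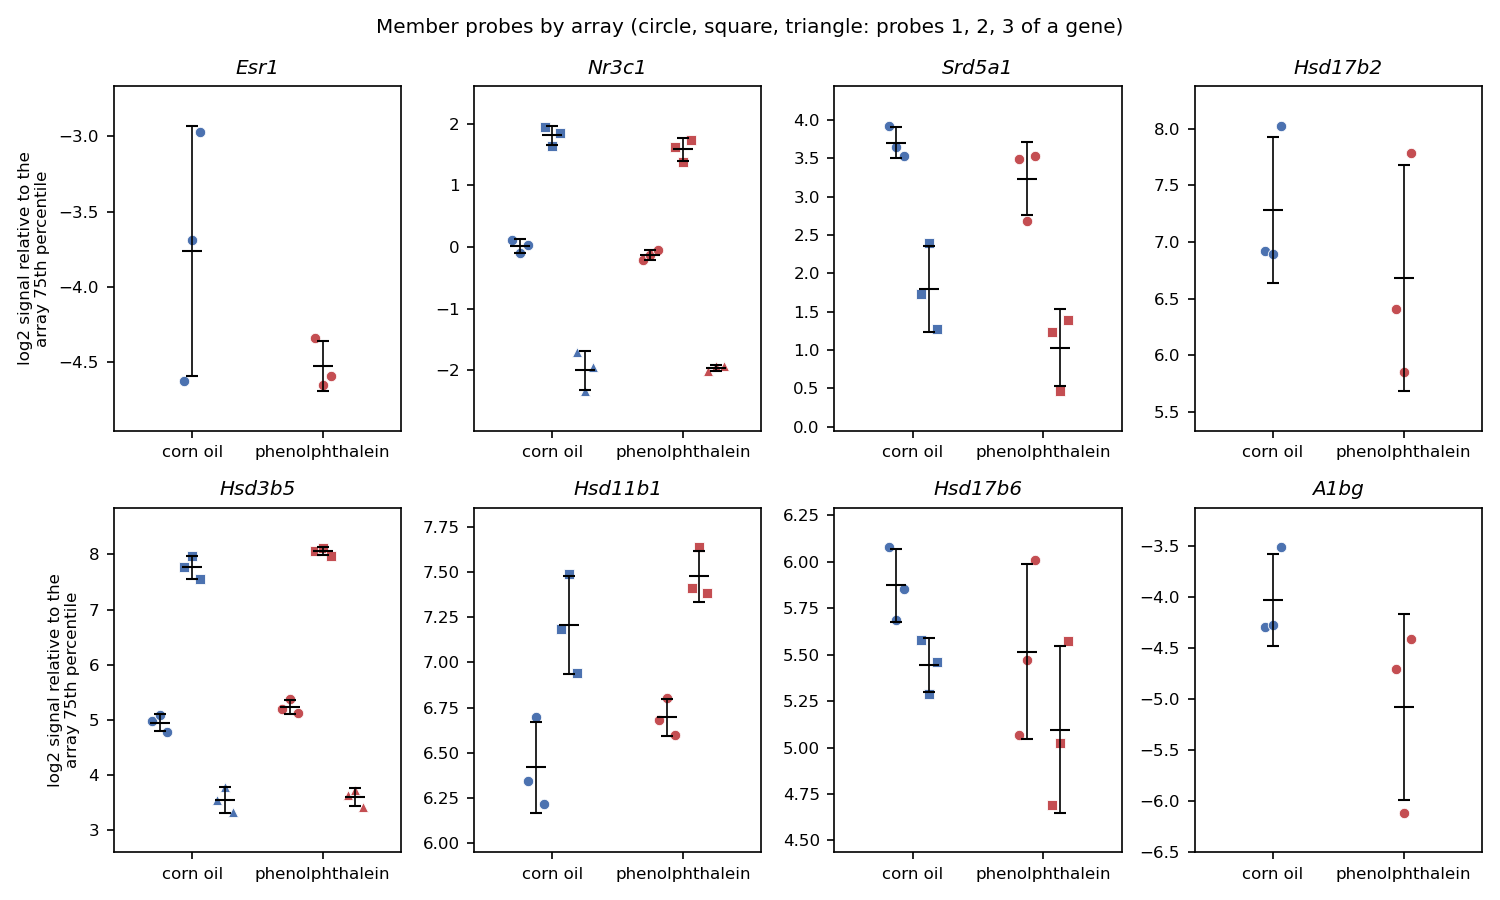
Log2 signal relative to the 75th percentile of the array (vertical axis) for the probes of each gene on the 3 corn oil arrays (blue) and the 3 phenolphthalein arrays (red), with black bars for the mean and SD of 3 arrays. Circles, squares and triangles are probes 1, 2 and 3 of a gene in the order of their names, and each panel has its own scale. Esr1 on corn oil ran from -4.62 to -2.97, while the phenolphthalein arrays lay between -4.65 and -4.34.

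Esr1 codes for the estrogen receptor alpha, the main estrogen receptor of liver, on chromosome 1 (43511685 to 43904454, GRCr8). Its probe A_44_P401615 read -4.62, -3.69 and -2.97 on corn oil replicates 1 to 3 and -4.34, -4.65 and -4.59 with phenolphthalein. The phenolphthalein arrays lay close together near the lowest corn oil array, and the corn oil animals spread over 1.66 log2 units, so the groups overlapped. Means were -3.76 ± 0.83 and -4.53 ± 0.17 (SD, n = 3 each), which is 1.70-fold lower. The log2 fold change was -0.77 ± 0.41 (SE; 95% interval -1.76 to 0.23; limma adjusted p = 0.469). The probe was dim. In intensity units it read 25.2, 49.4 and 76.0 on corn oil and 28.6, 22.4 and 22.9 with phenolphthalein, and it was well above background on all 6 arrays. Without corn oil replicate 3 the log2 fold change was -0.37, without corn oil replicate 1 it was -1.20, and with normexp background correction, which adds an offset of 50 and flattens dim spots, it was -0.22.

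The other estrogen receptor gene, Esr2, had 4 probes and was well above background on 0 of 6 arrays, as were the membrane receptor gene Gper1 and the progesterone receptor gene Pgr. Of the 12 steroid receptor genes on the list, 8 were tested, 0 were called in either direction and 7 had a lower mean, with a median log2 fold change of -0.11 against 0.01 over all 11434 genes. Among all genes, 0.0612% were called, 0.0525% higher and 0.00875% lower. The values were 0.20 ± 0.08 (SE) for Pgrmc1, a haem-binding membrane protein linked to progesterone, and -0.08 for the mineralocorticoid receptor Nr3c2.

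Nr3c1 codes for the glucocorticoid receptor, on chromosome 18 (31522783 to 31644508), and had 3 probes. Probe A_44_P477376, the brightest, read 1.94, 1.63 and 1.84 on corn oil and 1.62, 1.38 and 1.74 with phenolphthalein. Probe A_44_P1003794 read 0.12, -0.10 and 0.03 on corn oil and -0.22, -0.14 and -0.05 with phenolphthalein. Both probes had overlapping groups that lay close to each other. The log2 fold changes were -0.22 ± 0.13 (SE; 95% interval -0.55 to 0.10) and -0.15 ± 0.10 (-0.38 to 0.08), with limma adjusted p of 0.512 and 0.537. The first was -0.13 without phenolphthalein replicate 2, and the second was -0.10 without corn oil replicate 1 and -0.25 with normexp. In fold terms the interval of the second of these ran from 0.766 to 1.06, the narrowest among the members. The third probe, A_64_P269447, was dimmer, with means of -2.00 ± 0.32 for the controls and -1.96 ± 0.05 for the treated rats (SD, n = 3 each), and its log2 fold change of 0.04 ± 0.17 (SE; limma adjusted p = 0.934) had the opposite sign.

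Nr3c1 is made by leukocytes as well as hepatocytes, so the levels of white cell markers are given beside it. Markers of Kupffer cells, the liver macrophages, summed to 182 to 259 on corn oil and 134 to 176 with phenolphthalein, with a lower mean in 9 of 9 tested markers, and lymphocyte markers to 3.50 to 4.06 and 2.41 to 2.87, lower in 6 of 6. The neutrophil markers S100a8 and S100a9 went the other way, with sums of 0.738 to 1.18 and 0.946 to 1.70, higher in 2 of 2 tested and with overlapping groups. None of these white cell markers was called in limma over all genes, while 9 of the 9 Kupffer cell, 4 of the 6 lymphocyte and 0 of the 2 neutrophil markers had an unadjusted p under 0.05, against 15.3% of all genes. Bile duct markers summed to 1.63 to 1.78 and 2.08 to 2.15, higher in 4 of 5, also with none called. The part of these cell types in the Nr3c1 values was not tested. In whole liver RNA fewer cells of a type and less RNA per cell cannot be told apart.

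Hsd11b1 regenerates active glucocorticoid inside hepatocytes from its inactive keto form and lies on chromosome 13 (107277526 to 107327462). Probe A_44_P426345 read 7.19, 7.49 and 6.94 on corn oil and 7.41, 7.64 and 7.38 with phenolphthalein. Probe A_44_P1018957 read 6.34, 6.70 and 6.21 on corn oil and 6.68, 6.80 and 6.60 with phenolphthalein. On both probes corn oil replicate 2 reached into the phenolphthalein range and corn oil replicate 3 was lowest. The log2 fold changes were 0.27 ± 0.16 (SE; 95% interval -0.12 to 0.67) and 0.28 ± 0.15 (-0.08 to 0.63), with limma adjusted p of 0.512 and 0.470. They were 0.14 and 0.17 without corn oil replicate 3, and 0.41 and 0.42 without corn oil replicate 2. H6pd, which supplies its cofactor in the endoplasmic reticulum, had a log2 fold change of -0.05 and Hsd11b2, which runs the reaction the other way in kidney, one of 0.17.

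Genes that respond to glucocorticoid in liver showed no called change. Of 22 tested members 0 were called, 13 had a higher and 9 a lower mean, and the median was 0.11. Among them 3 were higher and 1 was lower at an unadjusted p under 0.05, against 7.16% and 8.11% of all genes. Fkbp5, a chaperone of the receptor that its own ligand induces, read 1.21, 2.25 and 2.47 on corn oil and 3.22, 3.87 and 3.37 with phenolphthalein. All its phenolphthalein arrays lay above all corn oil arrays, which holds for 12.2% of all genes, and groups lay apart in either direction for 23.2%. Its log2 fold change was 1.51 ± 0.36 (SE; limma adjusted p = 0.2 over all genes), and it ran from 1.12 to 1.76 without 1 array. Gpt, an alanine aminotransferase, had a value of 0.84 ± 0.18 and Dusp1, a phosphatase of MAP kinases, one of -0.91 ± 0.23 (SE), with groups that did not overlap and limma adjusted p of 0.172 and 0.211. Tat, a classic glucocorticoid-induced gene chosen here after its value was seen, had 0.33 ± 0.25 (SE). Tdo2, also among the 3 higher genes and also chosen after its value was seen, had 0.75 ± 0.22 (SE; limma adjusted p = 0.239). The groups of Tdo2 did not overlap.

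Chaperones and coregulators of the receptors had 0 of 13 tested members called and a median of 0.05. Besides Fkbp5, the members with the smallest p were Fkbp4, a chaperone that helps the receptor reach the nucleus, at -0.22 ± 0.07 (SE), and Safb, a corepressor of the estrogen receptor, at 0.15 ± 0.08, with limma adjusted p of 0.259 and 0.431. Estrogen-responsive genes had 0 of 13 called, 7 with a higher and 6 with a lower mean, and a median of 0.07. At an unadjusted p under 0.05, 2 of them were higher and 0 lower, against 7.16% and 8.11% of all genes. Unlike the glucocorticoid list, this list was not limited to liver genes, and its Igf1 and Socs2 also stand in the growth hormone list. These counts therefore do not measure the estrogen response of liver. Agt, the liver-made precursor of angiotensin, read 8.15, 8.38 and 8.39 on corn oil and 8.56, 8.59 and 8.53 with phenolphthalein. Its phenolphthalein arrays all lay above the corn oil arrays, as for 12.2% of all genes. Its log2 fold change was 0.25 ± 0.09 (SE; limma adjusted p = 0.294). Tff3, a secreted mucosal peptide, had 0.51 ± 0.18 from a dim probe, and Prlr, the prolactin receptor, was detected above background in 2 of 3 control and 1 of 3 treated rats, so that its difference has no firm size. Its fitted log2 fold change was -3.50 ± 1.66 (SE; limma adjusted p = 0.379), with -4.99 to -2.72 without 1 array and -1.24 with normexp.

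Srd5a1 reduces testosterone, progesterone and glucocorticoids in liver and is higher in female than in male rats. It lies on chromosome 1 (35514914 to 35548898). Probe A_44_P182431 read 3.93, 3.65 and 3.53 on corn oil and 3.49, 2.69 and 3.53 with phenolphthalein. The groups did not overlap only because 0.0021 log2 units separated the third replicates, and phenolphthalein replicate 2 was the lowest array. Probe A_44_P519871 read 1.73, 2.39 and 1.27 on corn oil and 1.24, 0.47 and 1.39 with phenolphthalein. It also had its lowest value on phenolphthalein replicate 2, and its groups overlapped. The log2 fold changes were -0.47 ± 0.25 (SE; 95% interval -1.09 to 0.15) and -0.77 ± 0.36 (-1.65 to 0.12), with limma adjusted p of 0.478 and 0.426. Without phenolphthalein replicate 2 they were -0.19 and -0.48, and the second was -0.47 without corn oil replicate 2. The first was -0.61 without phenolphthalein replicate 3, and the second was -1.03 without corn oil replicate 3.

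Hsd17b2 inactivates estradiol and testosterone by oxidation and lies on chromosome 19 (62662320 to 62733944). Its probe A_44_P374638 read 6.92, 6.89 and 8.03 on corn oil and 6.41, 5.85 and 7.79 with phenolphthalein. The third replicate was the highest in both groups, and each group spread over more than 1 log2 unit, 1.13 in corn oil and 1.94 with phenolphthalein. Means were 7.28 ± 0.64 and 6.68 ± 1.00 (SD, n = 3 each), with a log2 fold change of -0.60 ± 0.57 (SE; 95% interval -1.98 to 0.79; limma adjusted p = 0.677). This interval reached from 0.253 to 1.73 in fold terms and was the widest among the members. Its SD within groups, 0.84, was larger than that of 97.1% of all tested probes, whose median was 0.168. Leaving out phenolphthalein replicate 2 gave -0.18, leaving out phenolphthalein replicate 3 gave -1.15, and leaving out corn oil replicate 3 gave -0.22.

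Hsd17b6 oxidises androgen metabolites and is related to the retinol dehydrogenases. It lies on chromosome 7 (831407 to 850950). Probe A_44_P451985 read 6.08, 5.69 and 5.85 on corn oil and 5.07, 5.47 and 6.01 with phenolphthalein, and probe A_64_P027474 read 5.58, 5.29 and 5.46 on corn oil and 4.69, 5.03 and 5.58 with phenolphthalein. Both probes ranked the phenolphthalein animals alike, with replicate 1 lowest and replicate 3 inside the corn oil range. The log2 fold changes were -0.36 ± 0.25 (SE; 95% interval -0.97 to 0.26) and -0.35 ± 0.23 (-0.92 to 0.23), with limma adjusted p of 0.576 and 0.560. Without phenolphthalein replicate 1 they were -0.13 and -0.14, and without phenolphthalein replicate 3 they were -0.60 and -0.58.

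Hsd3b5 belongs to the hydroxysteroid dehydrogenases of the Hsd3b family, whose members are close in sequence, and its probes may also bind transcripts of its relatives. It lies on chromosome 2 (188697669 to 188717141) and had 3 probes. Probe A_64_P006423, the brightest, read 7.78, 7.97 and 7.56 on corn oil and 8.07, 8.12 and 7.98 with phenolphthalein. Probe A_42_P704131 read 4.98, 5.09 and 4.78 on corn oil and 5.20, 5.38 and 5.13 with phenolphthalein. On both probes all phenolphthalein arrays lay above all corn oil arrays, as for 11.8% of all probes, with corn oil replicate 2 just below them. Each probe was 1.22-fold higher, with log2 fold changes of 0.29 ± 0.13 (SE; 95% interval -0.02 to 0.60) and 0.29 ± 0.12 (-0.01 to 0.58) and limma adjusted p of 0.401 and 0.384, the latter the lowest among the members. The first was 0.18 without corn oil replicate 3, and the second was 0.14 with normexp. Probe A_64_P101628 read 3.54, 3.78 and 3.32 on corn oil and 3.64, 3.73 and 3.43 with phenolphthalein. It did not share the separation and had a log2 fold change of 0.05 ± 0.15 (SE; 95% interval -0.31 to 0.42; limma adjusted p = 0.903). On phenolphthalein replicate 1 this spot lay in an array column where 7.02% of bright probes were over 2 log2 units low, and with that spot left out the log2 fold change was 0.03.

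**Figure D2:**
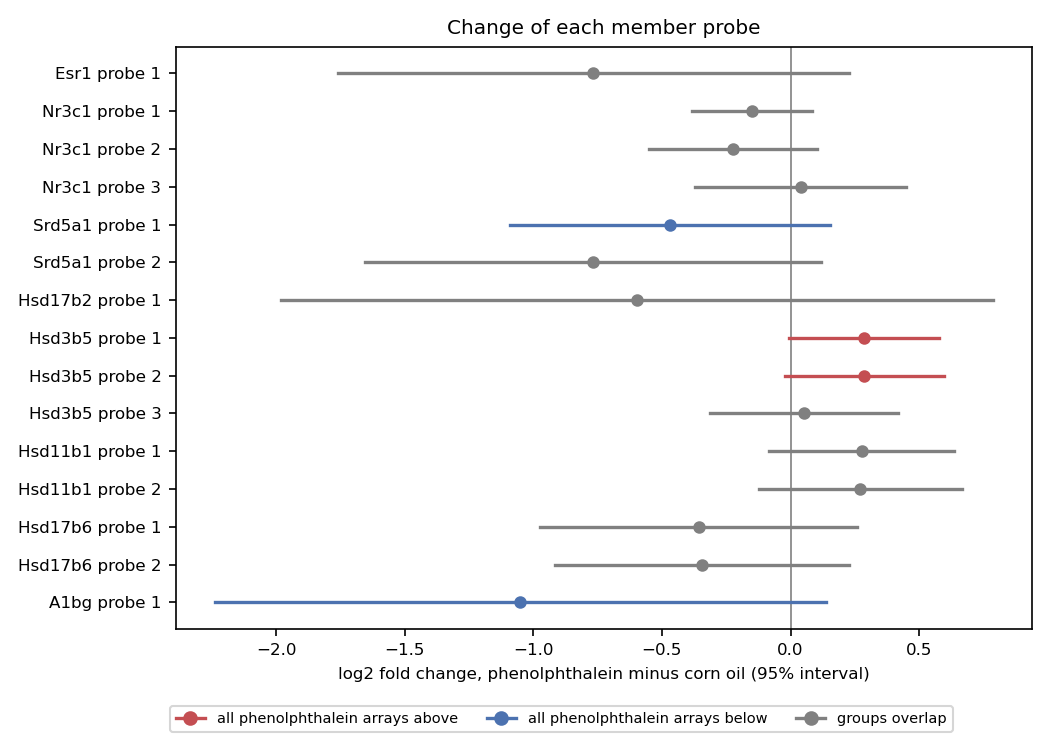
Log2 fold change of each member probe, phenolphthalein minus corn oil (horizontal axis), with its 95% interval from limma, 3 arrays per group. Red marks probes with all phenolphthalein arrays above all corn oil arrays, blue the reverse and grey overlapping groups. Every interval includes 0, and the widest, that of Hsd17b2, ran from -1.98 to 0.79.

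Other steroid-converting enzymes had 0 of 25 tested members called, 15 with a higher and 10 with a lower mean, and a median of 0.08. The smallest p belonged to Cyp7b1, a hydroxylase of oxysterols and steroids, which read 0.18, 0.15 and 0.39 on corn oil and -0.28, -0.31 and -0.17 with phenolphthalein. Its phenolphthalein arrays all lay below the corn oil arrays, as for 11% of all genes. Its log2 fold change was -0.50 ± 0.10 (SE; limma adjusted p = 0.164). The electron carriers Cyb5a and Por, which serve microsomal P450 enzymes, had values of 0.40 ± 0.10 and 0.71 ± 0.27 (SE) and limma adjusted p of 0.198 and 0.304. Among enzymes that share a family name with a member, Srd5a2 had 0.35, Srd5a3 -0.03, Hsd3b1 0.25, Hsd3b2 0.05, Hsd17b7 0.54 and Hsd17b1 -0.56. The retinol dehydrogenase Rdh16 had 0.85 ± 0.41 (SE; limma adjusted p = 0.383). All its phenolphthalein arrays lay above all corn oil arrays, as for 12.2% of all genes. The aromatase gene Cyp19a1 and the testis form Hsd17b3 were well above background on 0 of 6 arrays.

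Steroid conjugation was the 1 list with a called gene. Of its 18 tested members Ugt2b1, a glucuronosyltransferase of drugs and steroids, was higher and 17 were not called. Among all genes, 0.0525% were called higher and 0.00875% lower. The list median was 0.28, against 0.01 over all genes. At an unadjusted p under 0.05, 6 members were higher and 0 lower, against 7.16% and 8.11% of all genes. Ugt2b1 read 4.56, 5.18 and 4.56 on corn oil and 7.62, 7.38 and 7.37 with phenolphthalein, so the groups stood far apart. Its log2 fold change was 2.69 ± 0.19 (SE; limma adjusted p = 0.0176), and the call was lost when any array other than corn oil replicate 2 was left out, with values from 2.59 to 2.90 over these fits. It was also lost with the replicate number as a block, and its limma adjusted p ran from 0.00421 to 0.215 over all alternatives. Ugt2b37 and Ugt2b35 had 0.71 ± 0.15 and 0.41 ± 0.12 (SE) with limma adjusted p of 0.172 and 0.239. Carriers and secreted binders had 0 of 8 tested members called, with -0.38 ± 0.17 (SE) for Serpina6, the corticosteroid-binding globulin, and 0.41 ± 0.20 for Shbg, the sex hormone-binding globulin, and a median of -0.05.

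A1bg is a secreted plasma protein with immunoglobulin-like domains whose liver transcript is higher in female than in male rats. It lies on chromosome 7 (94383333 to 94387922). Its probe A_44_P360720 read -4.30, -4.28 and -3.51 on corn oil and -4.71, -6.12 and -4.41 with phenolphthalein. The treated rats all lay below the controls, as for 9.24% of all probes, with replicate 2 far below the rest. The mean was 2.07-fold lower, with a log2 fold change of -1.05 ± 0.49 (SE; 95% interval -2.24 to 0.14; limma adjusted p = 0.42). The probe was dim, with 31.7, 32.8 and 52.2 intensity units on corn oil and 22.1, 8.11 and 25.9 with phenolphthalein. On phenolphthalein replicate 2 it was not well above background, 0.70 log2 units under the dimmest probe that was. Without that array the log2 fold change was -0.53, and with normexp background correction it was -0.15.

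Male- and female-predominant liver genes, lists that hold Hsd3b5 on one side and Srd5a1 and A1bg on the other, had 0 called of 10 and of 9 tested members. Median log2 fold changes were 0.12 and -0.47, and the latter is the value of Srd5a1 itself. Of the male-predominant genes 6 had a higher and 4 a lower mean, and 3 were higher at an unadjusted p under 0.05, against 7.16% of all genes. They were the P450 genes Cyp3a2 at 0.54 ± 0.08 and Cyp2c11 at 0.40 ± 0.09 and the urinary protein gene Mup4 at 0.29 ± 0.11 (SE), with limma adjusted p of 0.116, 0.172 and 0.315. Cyp2c11, the defining male-specific P450 of rat liver, read 8.56, 8.55 and 8.65 on corn oil and 8.97, 9.10 and 8.89 with phenolphthalein, and its groups did not overlap, with treated rats above as for 12.2% of all genes. Of the female-predominant genes 3 had a higher and 6 a lower mean, and Cyp2a1, a testosterone hydroxylase, had 0.36 ± 0.16 (SE; limma adjusted p = 0.351). The P450 gene Cyp2c12 of that list had -0.90 ± 0.51 (SE; limma adjusted p = 0.448), with overlapping groups. The female-predominant median ran from -0.61 to -0.19 without 1 array. Genes of the growth hormone signal had 0 of 11 called and a median of -0.05, with -0.22 ± 0.08 for the kinase Jak2, -0.34 ± 0.15 for Igfals, the carrier of IGF complexes, and -1.21 ± 0.89 (SE) for the repressor Bcl6, which moved to -0.35 when corn oil replicate 3 was left out and to -1.82 when phenolphthalein replicate 1 was.

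**Figure D3:**
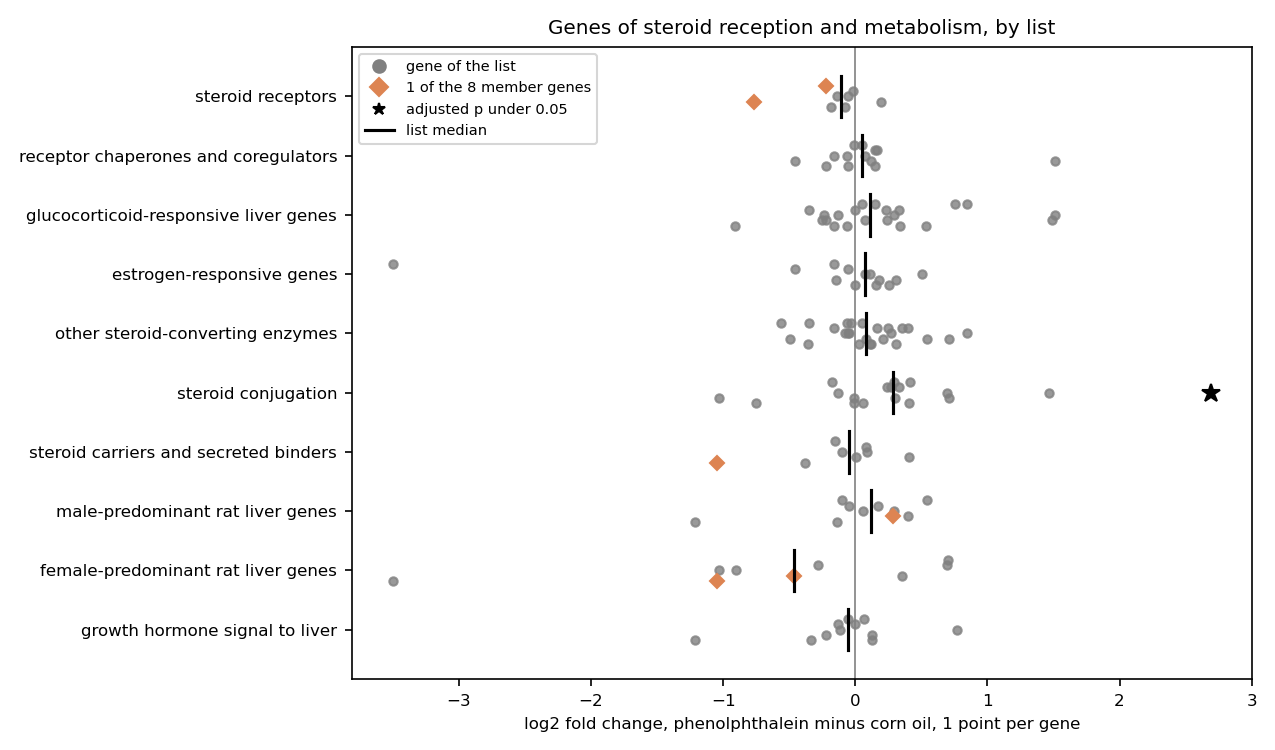
Log2 fold change, phenolphthalein minus corn oil (horizontal axis), with 1 point for each tested gene of 10 lists and a vertical bar at the list median. Orange diamonds are member genes and the black star is Ugt2b1 at 2.69, the single gene with a limma adjusted p under 0.05, and some genes stand in more than 1 list.

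Array by array, phenolphthalein replicate 2 stood at an end of the range for 10 of the 15 member probes. It was the lowest array for 6 probes, those of Esr1, Srd5a1, Hsd17b2 and A1bg and the brightest of Nr3c1, and the highest for 4, those of Hsd11b1 and the pair of Hsd3b5 probes that moved alike. Over all tested probes it was the lowest array for 18.4% and the highest for 15.4%. Corn oil replicate 3 was the lowest array for 5 probes, those of Hsd11b1 and Hsd3b5, and the highest for Esr1, Hsd17b2 and A1bg. Corn oil replicate 1 was highest for 6 probes. Over all tested probes corn oil replicate 3 was lowest for 19.8% and highest for 14.1%, and corn oil replicate 1 highest for 16.7%. The 15 probes come from 8 genes, and probes of a gene share their transcript, so these counts are not 15 separate measures.

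Spread within groups sorted the members. The SD pooled over both groups was larger than that of 94.0% of all tested probes for Esr1, of 96.0% for A1bg, of 84.0% and 92.4% for the Srd5a1 probes and of 83.7% and 80.9% for the Hsd17b6 probes. For the probes of Nr3c1 these shares ran from 22.0% to 65.3%, for Hsd3b5 from 41.8% to 58.2% and for Hsd11b1 from 57.0% to 62.9%.

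As a description, the genes whose levels followed each member most closely over the 6 arrays were found by Pearson r among 11418 genes, and over so few arrays 12 to 49 genes per member had r over 0.95. They were Saxo4, Cxcr4 and Stmn1 for Esr1 (r = 0.982, 0.978 and 0.971), and Cd27, Klra17 and Nfx1 for Nr3c1 (0.992, 0.992 and 0.989). For Srd5a1 they were Kdelr3, Man1a1 and Alkbh4 (0.993, 0.991 and 0.989), and for Hsd17b2 Sgk2, Pde4dip and C3h15orf48 (0.994, 0.994 and 0.984). For Hsd3b5 they were Noc2l, Ccdc148 and Ftsj3 (0.996, 0.987 and 0.987), and for Hsd11b1 Fscn2, Abhd4 and Commd4 (0.994, 0.991 and 0.983). For Hsd17b6 they were Myh11, Chic2 and Gmfg (0.991, 0.990 and 0.988), and for A1bg Pold3, Bnc2 and Etfa (0.996, 0.989 and 0.988).

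**Figure D4:**
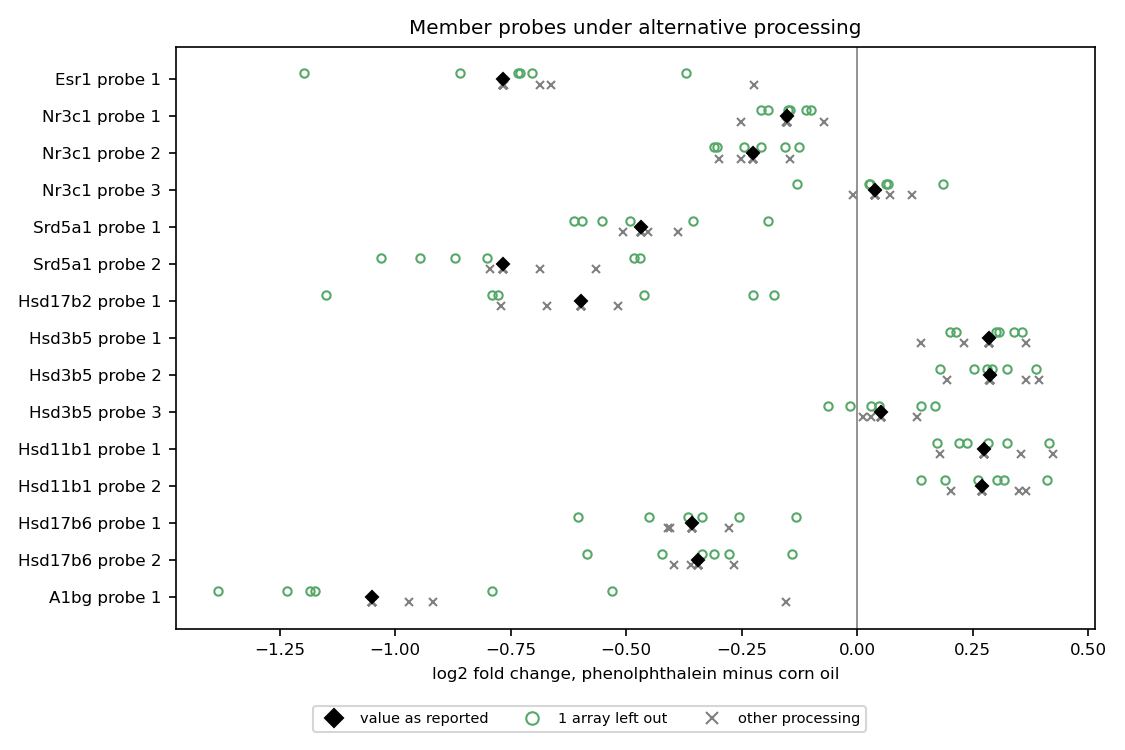
Log2 fold change of each member probe, phenolphthalein minus corn oil (horizontal axis), as reported (black diamonds), with 1 array left out (green circles) and under other processing (grey crosses). A1bg ran from -1.38 to -0.15 and Esr1 from -1.20 to -0.22 without changing sign, and Nr3c1 probe 3 and Hsd3b5 probe 3 lay on both sides of 0.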

How the data were processed

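Liver cRNA carried 1 dye, Cy3, on Agilent arrays, as the labels' protocols state. Spot intensity in the deposited files came from the scanner software Feature Extraction (10.7 in the submitters' processing notes, 10.7.1.1 per the file headers). A deposited value table proved, when set against those files, to be each array's intensity over a single factor near its 75th percentile, with column medians of 0.0984, 0.101 and 0.102 for corn oil and 0.0955, 0.0941 and 0.096 for phenolphthalein, so it is linear and not centred.

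The processed signal was put on a log2 scale and the array's 75th percentile over 61657 probes was subtracted. Spots marked as outliers (4 to 14 per array, none in a member) were left out, and no spot was saturated. Probes well above background on at least 3 arrays were tested in limma 3.58.1 (R 4.3.3) with lmFit and eBayes, adjusted over 39411 probes at 0.05. Accessions were matched to RefSeq (GRCr8, used for names and gene positions, since the array design is on another build): 27460 probes matched 1 gene and 34197 none. For lists, the brightest probe stood for each of 11434 genes. Precision is limited by the 3 animals, 1 array each, that the labels give per treatment.

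Named genes were the members, called genes and the 3 with the smallest p per list, and the 3 most alike per member. Tat, Tdo2, Cyp2c12, enzyme relatives and some receptors were chosen after their values were seen. The members and lists were chosen with earlier results of these data known. The test was checked on simulated data. Alternatives were normexp (offset 50, on median spot signals in place of means), quantile normalization, a median shift, no filter, a filter on all 6 arrays, marked spots kept, a trended robust prior, the deposited values, the mean of a gene's probes, probes with a gene name only, fits without each array, a block for replicate number and, added after the data were seen, a mask of array columns with over 5% of dim spots.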

Additional observations from a re-analysis of the deposited data

How the results depend on the processing

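No member probe was called under any of the 17 alternatives run per probe (16 for A1bg, which the filter on all 6 arrays removed), and 4 of the 254 values had the opposite sign. These belonged to Nr3c1 probe A_64_P269447, at -0.00815 with normexp and from -0.13 to 0.19 without 1 array, and Hsd3b5 probe A_64_P101628, from -0.0621 to 0.17 without 1 array. Counts of all called probes, 19 as reported, were 0 with no filter on dim probes, 12 over probes with a gene name, 0 to 5 without 1 array and 27 with the trended robust prior, the highest count, and those of called genes, 7 as reported, were 0 to 6 without 1 array and 10 with the filter on all 6 arrays. The steroid conjugation list had 0 or 1 called genes without 1 array. With the replicate number as a block, 0 probes, 0 genes and 0 genes of the conjugation list were called. Deviations of same-numbered arrays from their group means correlated at -0.0117, 0.02 and 0.00628. No pairing by number was seen in these values, which cannot show that none existed. The cause of these differences was not tested. A slide block could not be fitted, since each slide held 1 group. The Esr1 probe stood 0.77 to 2.16 log2 units above the dimmest probe called well above background, and the A1bg probe -0.70 to 1.62, which limits what their values can show.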
